A study of Homo sapiens with 6 samples.

Results

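The enzymes that add or remove methyl and acetyl groups on histones were examined in NB4, a human promyelocytic leukemia cell line that carries the PML-RARA fusion. Members were the genes of the table whose symbols belong to the KDM, KMT, SETD, SETDB, NSD, EHMT, SUV39H, HDAC, SIRT and KAT series, together with EP300, CREBBP and DOT1L. The Y-linked UTY was left out. This gave 70 of the 18625 genes in the table. RNA-seq had been run on NB4 cells cultured for 3 days with 10 μM Tan I (Tanshinone I, a lipid-soluble compound of the Dan-Shen root) or with DMSO, the solvent, with 3 libraries in each group. No genetic change separated the groups, and nothing in the labels says whether the 3 libraries of a group came from separate cultures, so the p-values measure the spread between these libraries, which may be technical.

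Writers place a chemical mark on a histone tail and erasers take it off. Methylation of H3K4 and H3K36 is known from active genes, methylation of H3K9 and H3K27 from silent ones, and acetylation loosens the contact of histones with DNA. Several of these enzymes are known from leukemia: KMT2A is broken and fused to other genes in acute leukemias, DOT1L is drawn to its targets by such fusions, and the PML-RARA protein recruits corepressor complexes that carry HDAC3. The 70 members were sorted by known role into 21 methyl writers, 15 methyl erasers, 10 acetyl writers and 18 acetyl erasers. The other 6 (KMT2E, SETD3, SETD4, SETD5, SETD6 and SETD9) carry a SET domain, the fold that transfers methyl groups, but have no settled histone site and were kept apart from the writers. A few members counted as histone enzymes, among them the mitochondrial SIRT3, SIRT4 and SIRT5, act mostly on other proteins.

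Values are normalized counts, that is, reads per gene divided by 1 size factor per library. The reads on the listed genes ran from 21502760 to 31679138 per library. All 70 members reached the mean of 10 normalized counts required for testing, the lowest read count of a member in any library was 27, and 65 members had at least 100 reads in every library. The libraries also differed along an axis that did not separate the groups, the first principal component, which held 70.8% of the variance. DMSO replicate 2 and Tan I replicate 3 lay at its far end (scores of 41.1 and 71.6). DMSO replicate 1 and Tan I replicate 1 lay at the other (-48.0 and -46.8). Between them were DMSO replicate 3 (-26.7) and Tan I replicate 2 (8.65), and the mean score was higher in Tan I than in DMSO. Of 8 promyelocyte markers 7 were tested. Their summed normalized counts were 85720 to 100546 in DMSO and 56043 to 72556 in Tan I, and MPO and CTSG, granule proteins of promyelocytes, had log2 fold changes of -0.78 and -0.69 with an unadjusted limma p of at most 0.05. Over the 7 markers 5 were lower and 2 higher, with a median of -0.25 and a highest value of 0.14. Of 11 markers of other cell types 7 were tested, with sums of 886 to 1138 in DMSO and 865 to 1272 in Tan I. The part of these differences in the values of the enzymes was not tested.

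The RNA levels of the enzyme family differed little between Tan I and DMSO. A gene was called where limma's unadjusted p was at most 0.05 and the log2 fold change (Tan I over DMSO) at least 0.25 in size. By that rule 1 of 70 members was called (1.43%), SETD1B, which was lower in Tan I, while 2.42% of the 16887 genes tested were called in either direction and 1.1% were called lower. With p-values adjusted over all genes tested (Benjamini-Hochberg), 0 of 70 members and 0% of all genes were called by limma, and the smallest adjusted p of a member was 0.999. DESeq2 and edgeR on the recovered reads also called 0 members after adjustment, where DESeq2 called 16 of all genes tested (0.0947%) and edgeR 0, and both called SETD1B alone among the members without it. The 3 Tan I libraries lay entirely below the 3 DMSO libraries for 1 member, again SETD1B (3.97% of all genes tested lay so), and entirely above them for 0 members (3.92% of all genes tested).

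For most members the intervals were narrow enough to bound the difference. The log2 fold change was under 0.25 in size for 59 members. Of the other 11, 10 were lower in Tan I and 1, SIRT6, was higher. The 95% interval stayed inside a 2-fold change in either direction for 66 members and inside a 1.5-fold change for 42. It reached past 2-fold for KAT6A, KMT2A, KMT2D and SETD1B. The standard error of the log2 fold change ran from 0.10 to 0.47 with a median of 0.17.

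**Figure D1:**
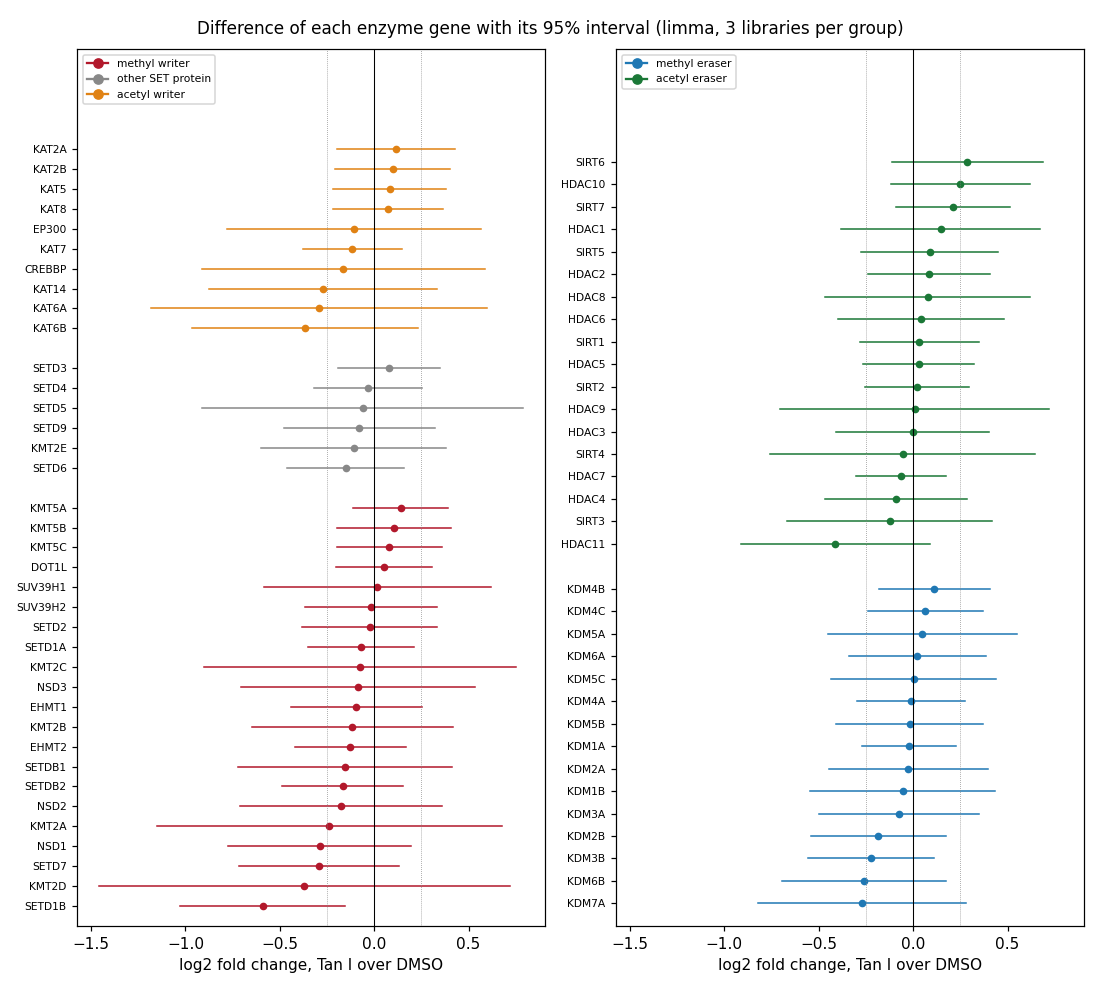
Log2 fold change, Tan I over DMSO (horizontal axis) for each of the 70 enzyme genes (vertical axis), coloured by class, with the 95% interval from limma and 3 libraries per group; dotted lines mark a log2 fold change of 0.25 in either direction. SETD1B, at the foot of the left panel, is the gene called without adjustment, and 59 points lie between the dotted lines.

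SETD1B, a writer of H3K4 trimethylation and the catalytic subunit of a COMPASS complex, gave the largest difference in size among the 70 members. The gene lies on the plus strand of GRCh38 at chr12:121804009-121832656, GENCODE release 44 gives it 17 exons in the canonical transcript, and no other annotated gene overlaps it. Its normalized counts were 223, 221 and 180 in DMSO, from 239, 229 and 230 reads, and 164, 129 and 121 in Tan I, from 168, 122 and 91 reads. Every Tan I library was below every DMSO library. The far-end DMSO replicate 2 was level with DMSO replicate 1. The far-end Tan I replicate 3 was the lowest Tan I library, at -0.43 on the log2 scale against Tan I replicate 1. The part of the library axis in the SETD1B difference was not tested. The log2 fold change was -0.59 with a standard error of 0.19 (limma, unadjusted p = 0.0146, adjusted p = 0.999), and the exact two-sided permutation test gave p = 0.1, the smallest that 3 libraries against 3 allow. The call was lost without DMSO replicate 1 (-0.54), without Tan I replicate 2 (-0.55) and without DMSO replicate 2 and Tan I replicate 3 together (-0.46). SETD1B was also the second lowest member in level per length, at 24.3 ± 2.84 normalized counts per kb of transcript with DMSO and 16.1 ± 2.68 with Tan I (SD, n = 3).

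The other writers of H3K4 methylation were also on the lower side, without passing the test. All 7 had negative log2 fold changes, from -0.07 in SETD1A to -0.59 in SETD1B with a median of -0.24, against -0.0016 over all genes tested. KMT2A, the H3K4 methyltransferase of the MLL fusions, had normalized counts of 3475, 1611 and 2629 in DMSO and 3379, 2056 and 1290 in Tan I. The groups overlapped over most of their range, with the low values in DMSO replicate 2 and Tan I replicate 3, and the log2 fold change of -0.24 had a 95% interval of -1.15 to 0.68. KMT2D, which methylates H3K4 at enhancers and was picked for its spread after the values were seen, read 5163, 2137 and 3826 in DMSO and 5008, 2555 and 1530 in Tan I. Its highest library was 2.42-fold above its lowest within DMSO and 3.27-fold within Tan I. The shared direction of the H3K4 writers depended on the libraries: without Tan I replicate 3, only 3 of the 7 were lower and the median was 0.03. With the principal component score in the model 4 of 7 were lower, with a median of -0.03. After a correction for transcript length and GC content 6 of 7 were lower, with a median of -0.07. SETD1B was lower in all of these. KMT2C has near-identical partial copies elsewhere in the genome, so its counts are less certain than those of its relatives.

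The erasers of H3K4 methylation stayed near 0, with 3 of 5 lower and log2 fold changes between -0.06 and 0.05. KDM1A (LSD1), the flavin-dependent H3K4 demethylase that holds back myeloid differentiation, read 4658, 5003 and 4659 in DMSO and 4491, 4655 and 4965 in Tan I. These 6 values lay close together, and the log2 fold change was -0.02 with a 95% interval of -0.27 to 0.23.

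On H3K27 methylation, the mark laid down by the PRC2 enzymes EZH1 and EZH2, the 70 genes hold erasers and no writer. KDM6A (UTX), which removes H3K27 methylation, read 991, 742 and 896 in DMSO and 969, 927 and 767 in Tan I. The groups overlapped, and its log2 fold change was 0.02 (95% interval -0.34 to 0.38). KDM6B (JMJD3), its close relative with the same activity, read 398, 364 and 412 in DMSO and 414, 315 and 265 in Tan I. Tan I replicates 2 and 3 were below all DMSO libraries while Tan I replicate 1 was above them, and the log2 fold change was -0.26 (95% interval -0.69 to 0.17). The writers, which are not among the 70 genes, were close between the groups: EZH2 read 3795, 3041 and 3729 in DMSO and 3920, 3690 and 3349 in Tan I, a log2 fold change of 0.06 (95% interval -0.25 to 0.36). EZH1 read 3373, 2386 and 3566 against 3440, 3229 and 2571, a log2 fold change of -0.0023 (95% interval -0.44 to 0.44).

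Writers of H3K36 and H3K9 methylation had small negative medians. All 4 H3K36 writers were lower, with a median of -0.13. NSD2, which dimethylates H3K36, had the highest normalized counts of all members, 14357, 9294 and 13672 in DMSO and 13494, 10969 and 8524 in Tan I. Its groups overlapped and its log2 fold change was -0.18 with a standard error of 0.23. SETD2, the H3K36 trimethylase, read 1938, 1465 and 1803 in DMSO and 1861, 1792 and 1462 in Tan I, a log2 fold change of -0.02. After the correction for transcript length and GC content 2 of these 4 were lower, with a median of 0.00017. Of the 6 H3K9 writers 5 were lower. SETDB1, the trimethylase of repeat silencing, read 2394, 1478 and 2210 in DMSO and 2166, 1952 and 1334 in Tan I (log2 fold change -0.16, standard error 0.24). EHMT2 (G9a), which dimethylates H3K9, read 2795, 2512 and 2814 in DMSO and 2777, 2484 and 2202 in Tan I. Its groups overlapped, with a log2 fold change of -0.13 (standard error 0.13).

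The remaining methyl writers were on the higher side. The 3 H4K20 writers had log2 fold changes of 0.14 (KMT5A), 0.10 (KMT5B) and 0.08 (KMT5C). KMT5A, the H4K20 monomethylase of mitosis, read 2465, 2667 and 2647 in DMSO and 2650, 2919 and 3018 in Tan I, with Tan I replicate 1 inside the DMSO range. These 3 genes were also higher under the principal component covariate, under the length correction, and without Tan I replicate 1 or Tan I replicate 3. DOT1L, the sole H3K79 methyltransferase, read 2787, 2660 and 2822 in DMSO and 3041, 2941 and 2603 in Tan I. Its log2 fold change of 0.05 had a 95% interval of -0.21 to 0.31.

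Among the other methyl erasers, the H3K9 demethylases held both extremes of the class. KDM7A, which also acts on H3K27 dimethylation, read 1014, 648 and 921 in DMSO and 912, 686 and 549 in Tan I, a log2 fold change of -0.27 (standard error 0.24). KDM4B read 973, 822 and 1005 in DMSO and 1075, 979 and 961 in Tan I, a log2 fold change of 0.11 (standard error 0.13). Both genes overlapped between the groups. The H3K36 demethylases KDM2A and KDM2B had log2 fold changes of -0.02 and -0.18.

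In the SET proteins without a settled histone site, log2 fold changes ran from -0.15 in SETD6, which methylates the NF-κB subunit RelA, to 0.08 in SETD3, which methylates actin. SETD6 read 531, 500 and 522 in DMSO and 507, 488 and 408 in Tan I. SETD3 read 1740, 1753 and 1542 in DMSO and 1625, 1799 and 1883 in Tan I. Neither passed the test, and in both genes the groups overlapped.

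Acetyl writers gave no call, and their spread between libraries varied by gene. The highest of the 6 libraries was 1.21-fold above the lowest in KAT7 and 2.71-fold in KAT6A, the ends of the class. KAT6B, a MYST-family acetylase of H3, had the lowest value of the class: it read 1105, 713 and 979 in DMSO and 988, 684 and 533 in Tan I, a log2 fold change of -0.37 (95% interval -0.96 to 0.23). The paired coactivators of H3K27 acetylation followed the same order across libraries, an order also seen outside the class in KDM1B, KDM3A and KDM5B. EP300 read 1304, 802 and 1095 in DMSO and 1440, 907 and 701 in Tan I, and CREBBP read 1176, 635 and 1031 in DMSO and 1224, 770 and 580 in Tan I. In both, replicate 1 of Tan I was the highest of all 6 libraries and replicate 3 of Tan I the lowest. Their log2 fold changes were -0.11 (standard error 0.29) and -0.16 (standard error 0.32). KAT2A (GCN5), the acetylase of the SAGA complex, read 6357, 6133 and 6824 in DMSO and 6001, 7724 and 7323 in Tan I, with a log2 fold change of 0.12 (95% interval -0.19 to 0.43). It was the highest acetyl writer per length, at 2067 ± 113 normalized counts per kb in DMSO (SD, n = 3).

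Of the acetyl erasers 12 of 18 were higher and 6 lower, with 0 called. The 4 class I deacetylases, the catalytic cores of the NuRD, Sin3, CoREST and NCoR complexes together with HDAC8, had log2 fold changes between -0.0028 and 0.15. HDAC1 read 6381, 3933 and 6540 in DMSO and 6500, 6817 and 5021 in Tan I. DMSO replicate 2 stood 1.66-fold under the highest DMSO library, and the log2 fold change was 0.15 with a 95% interval of -0.38 to 0.67. HDAC2 read 3070, 3634 and 3268 in DMSO and 3059, 3519 and 4022 in Tan I (log2 fold change 0.08, standard error 0.14). HDAC3 read 1698, 2342 and 2011 in DMSO and 1730, 1901 and 2418 in Tan I, a log2 fold change of -0.0028 (standard error 0.17). Where HDAC1 was low, in DMSO replicate 2 and Tan I replicate 3, HDAC2 and HDAC3 were at their highest within each group. HDAC1 was the highest member of all per length, at 2652 ± 690 normalized counts per kb in DMSO, and HDAC9 the lowest, at 4.27 ± 1.13 (SD, n = 3).

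The extremes of the acetyl erasers were HDAC11 and SIRT6. HDAC11, the class IV deacetylase that also removes fatty acyl groups, read 97.0, 142 and 126 in DMSO and 80.2, 88.5 and 103 in Tan I. Tan I replicate 3 was above DMSO replicate 1, so the groups overlapped, and the log2 fold change was -0.41 (95% interval -0.91 to 0.09). An antisense gene, HDAC11-AS1, overlaps it, and whether the counting used the strand is not given in the sources used here. SIRT6, a nuclear sirtuin that deacetylates H3K9, read 393, 461 and 415 in DMSO and 413, 557 and 595 in Tan I. Tan I replicates 2 and 3 were above all DMSO libraries and Tan I replicate 1 was not, and the log2 fold change was 0.29 (95% interval -0.11 to 0.69). SIRT1, the nuclear sirtuin that deacetylates p53 as well as histones, read 768, 643 and 793 in DMSO and 794, 781 and 677 in Tan I, a log2 fold change of 0.03 (standard error 0.14).

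**Figure D2:**
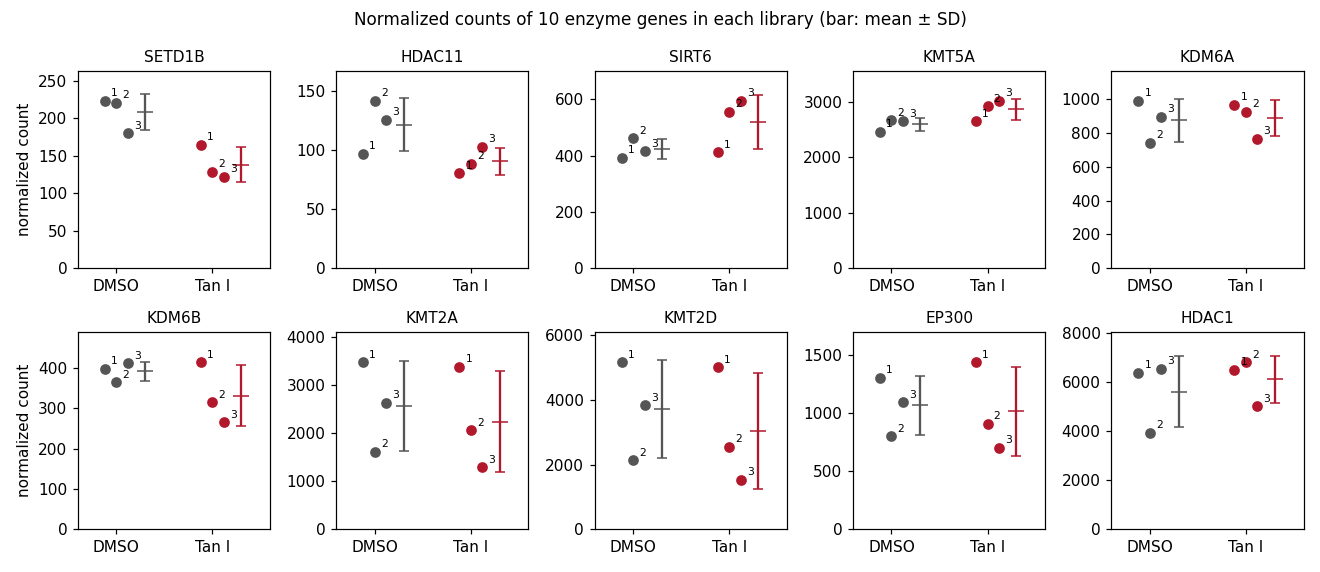
Normalized counts (vertical axis, from 0) of 10 enzyme genes in the DMSO and Tan I libraries; points are single libraries with their replicate number and bars are the mean ± SD of 3 libraries. Only SETD1B shows groups that do not overlap, while KMT2A, KMT2D and EP300 spread widely within each group.

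Writers were then set against erasers of the same chemical group, methyl or acetyl, with all sites pooled. The pooled methyl writers include those of H4K20 and H3K79, which have no eraser among the members. The methyl erasers include those of H3K27, which have no writer there. The median log2 fold change was -0.10 for methyl writers (16 lower, 5 higher) and -0.02 for methyl erasers (10 lower, 5 higher). It was -0.11 for acetyl writers (6 lower, 4 higher) and 0.03 for acetyl erasers (6 lower, 12 higher). These medians depended on single libraries. Without Tan I replicate 3 they were 0.01 for methyl writers, 0.10 for methyl erasers and 0.03 for acetyl writers, and without DMSO replicate 1 those of the methyl erasers (0.04) and acetyl writers (0.02) were also positive. Without Tan I replicate 1 the methyl writers were at -0.26 and the acetyl erasers at 0.10, and without DMSO replicate 2 the methyl erasers were at -0.17. The mean log2 level of the methyl writers minus that of the methyl erasers was 0.071, 0.069 and 0.027 in DMSO, against 0.0059, -0.0073 and -0.010 in Tan I. The Tan I libraries lay below the DMSO libraries, by 0.06 on the log2 scale, a small step that is given with no test since the members were chosen with earlier results of these data known. In this difference DMSO replicate 2 was close to DMSO replicate 1. Tan I replicate 3 was the lowest of the 6 libraries, close to Tan I replicate 2. The part of the library axis in the step was not tested. The step was -0.06 as defined, -0.04 without SETD1B and -0.05 with the 6 other SET proteins counted as writers, and the groups did not overlap in either variant. Both variants share most genes and all 6 libraries with the first difference, so they are not independent of it. Site by site the groups did overlap, with differences of -0.24 for H3K4, -0.02 for H3K9 and -0.04 for H3K36. For acetylation the writers minus erasers gave 0.41, 0.16 and 0.30 in DMSO and 0.44, 0.10 and -0.05 in Tan I. These groups overlapped, and the difference of -0.12 was close in size to the SD of 0.12 within DMSO and smaller than the SD of 0.25 within Tan I.

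**Figure D3:**
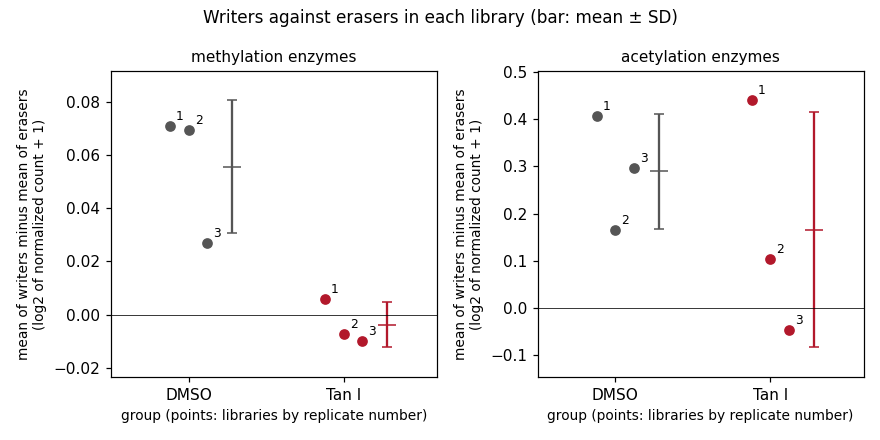
Mean log2(normalized count + 1) of the writers minus that of the erasers (vertical axis) in each library, for methylation (left; 21 writers, 15 erasers) and acetylation (right; 10 writers, 18 erasers); points carry the replicate number and bars are the mean ± SD of 3 libraries. The methylation values lie between 0.027 and 0.071 in DMSO and between -0.010 and 0.0059 in Tan I, on a much finer axis than the acetylation values, which overlap.

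The members also differed between libraries of 1 group. DMSO replicate 2 differed from the mean of DMSO replicates 1 and 3 by a median of 0.27 in size on the log2 scale, against 0.089 for Tan I minus DMSO. Over all genes tested both medians were larger, at 0.35 and 0.14. The DMSO replicate 2 difference was the larger of the pair in 53 of 70 members (75.7%) and in 75.9% of all genes tested, a like share. Noise alone makes 1 library against 2 vary 1.5 times as widely as 3 against 3. DMSO replicate 2 and Tan I replicate 3 were both the lowest of their group in 42 members (60%, against 32.1% of all genes tested) and both the highest in 14 (20%, against 35.0%). SETD5, picked after its values were seen, read 12202, 5675 and 10412 in DMSO and 12316, 9250 and 5561 in Tan I. SUV39H1, an H3K9 trimethylase of heterochromatin picked in the same way, went in the opposite direction with 805, 1249 and 986 in DMSO and 773, 924 and 1436 in Tan I.

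**Figure D4:**
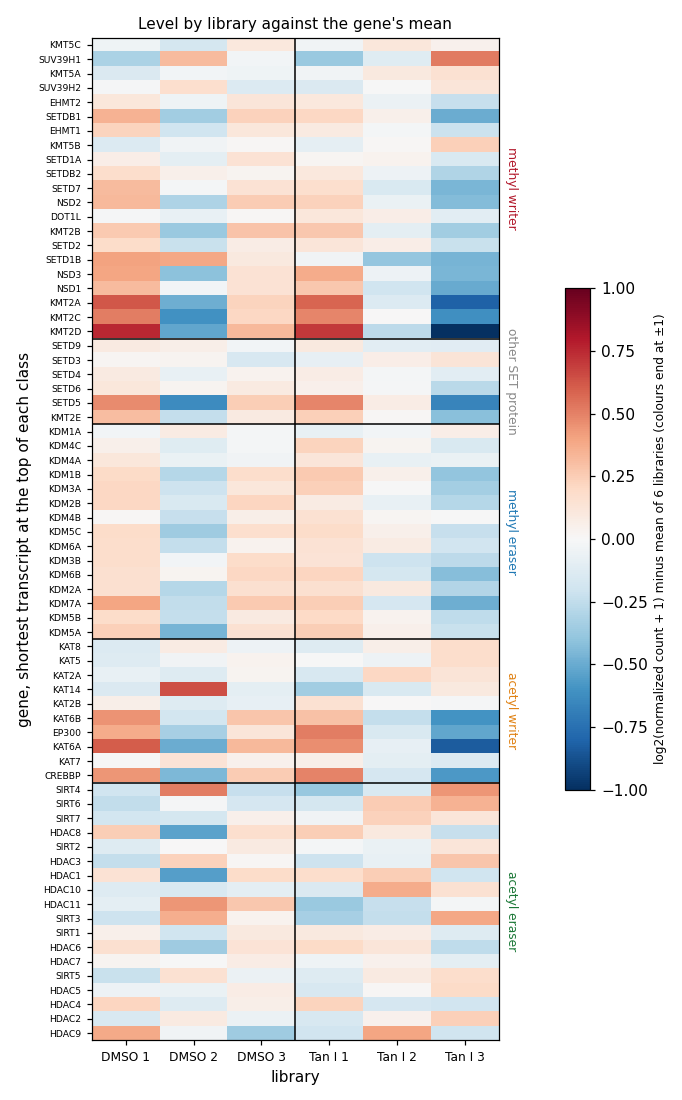
Log2(normalized count + 1) of each gene (rows, by class and then by transcript length) in each of the 6 libraries (columns), minus the gene's mean over the libraries; red is above and blue below the mean, and colours end at 1. DMSO replicate 2 and Tan I replicate 3 are blue for most methylation enzymes, and both are the lowest of their group in 42 of 70 genes.

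The spread went with transcript length. The median canonical transcript was 5.32 kb in the members and 2.59 kb in all genes tested. Of the 35 members longer than their median, 31 were lower in DMSO replicate 2 than in the other DMSO libraries (median -0.35 on the log2 scale) and 32 were lower in Tan I replicate 3 than in Tan I replicate 1 (median -0.46). Of the 35 shorter, 19 and 16 were lower, with medians of -0.05 and 0.14. The treatment difference went the same way, with 26 of the longer members lower in Tan I (median -0.11) and 17 of the shorter (median 0.02). Across the 70 members, which share the 6 libraries, Spearman's rho of length was -0.54 with the DMSO replicate 2 difference and -0.50 with the treatment difference, Tan I minus DMSO. Across 16825 genes tested with a known length, the first was -0.15. The second is not given over all genes, so whether it is particular to the members was not tested. The classes differ in length, with medians of 6.81 kb for methyl writers, 5.81 kb for methyl erasers, 6.36 kb for acetyl writers and 2.85 kb for acetyl erasers. After the correction for transcript length and GC content the class medians were -0.02 for methyl writers, 0.08 for methyl erasers, 0.03 for acetyl writers and 0.09 for acetyl erasers, beside 0.03 for all genes tested.

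**Figure D5:**
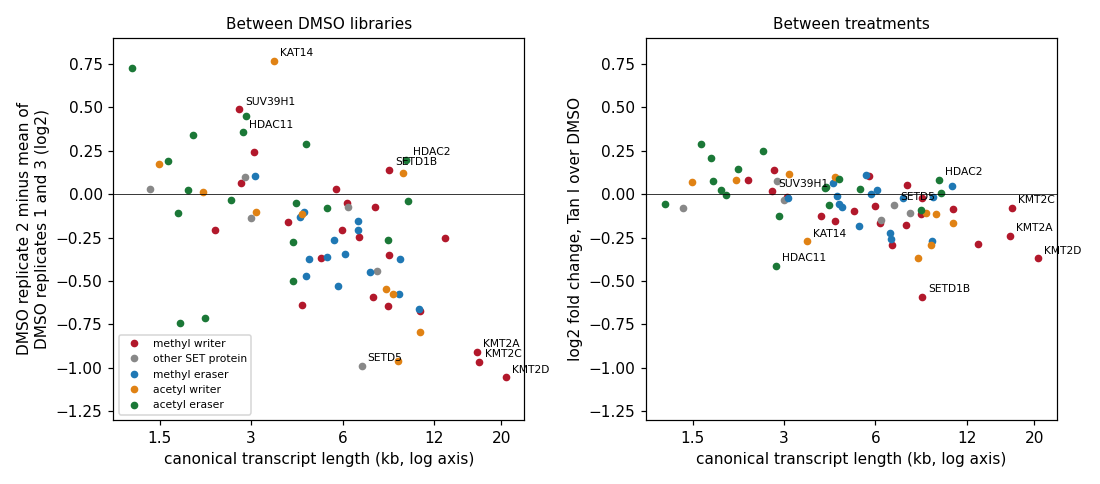
Canonical transcript length (horizontal log axis, kb) against the log2 difference of DMSO replicate 2 from the other DMSO libraries (left) and against the log2 fold change with Tan I (right) for the 70 genes, coloured by class. Values tend downwards with length in both panels (rho -0.54 and -0.50), and KMT2A and KMT2D lie low in both, while KMT2C lies low in the left panel and at -0.08 in the right.

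Rescaling each library to the same total gave 2 calls, SETD1B and HDAC11 (2.86%, against 2.59% of all genes tested). Without DMSO replicate 1, HDAC11 (-0.56) was the only member called (1.43%, against 1.07% of all genes tested). More calls than these came under 2 settings that changed how the libraries enter, and in both the share called among all genes was also larger. With the score on the first principal component in the model, 5 members were called without adjustment, HDAC1 (0.26), SETD1B (-0.55), SIRT3 (-0.26), KAT14 (-0.40) and HDAC11 (-0.50), which is 7.14% against 8.86% of all genes tested. The adjusted p of SETD1B was then 0.0914 by limma. Without Tan I replicate 1, the library closest to DMSO replicate 1, 8 members were called (11.4%, against 8.86% of all genes tested): SIRT6 (0.45), HDAC10 (0.38), KDM3B (-0.35), KDM6B (-0.43), SETD1B (-0.72), SETD7 (-0.45), KAT6B (-0.60) and NSD1 (-0.50). SIRT3, KAT14, HDAC10, KDM3B, SETD7 and NSD1 are named for these calls. With adjustment 0 members passed under either setting, while 1.15% of all genes tested passed with the score in the model and 0% without Tan I replicate 1. Of the 70 members, 40 had the opposite sign in at least 1 of the 19 alternative settings.

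Partners of these enzymes and further enzymes of the same marks gave a like picture. Of 91 such genes, all tested, 1 was called without adjustment (1.1%, against 2.42% of all genes tested), RIOX2, a nucleolar JmjC-domain oxygenase. It read 225, 258 and 257 in DMSO and 205, 183 and 183 in Tan I, with no overlap between the groups and a log2 fold change of -0.37 (standard error 0.15). Its call was lost without DMSO replicate 2 (-0.34), DMSO replicate 3 (-0.34), Tan I replicate 2 (-0.34) or Tan I replicate 3 (-0.34), without DMSO replicate 2 and Tan I replicate 3 together (-0.31), and after the length and GC correction (-0.31). With a replicate block it was lost at the same fold change. The median log2 fold change was -0.10 for 24 further enzymes, -0.04 for 12 partners of the KMT2 and SETD1 complexes, -0.01 for 26 partners of the HDACs and 0.02 for 27 partners of the acetyl writers. With RIOX2, the groups did not overlap for 8 of the 91 genes (3.97% of all genes tested lay apart downwards and 3.92% upwards), among them WDR82, a subunit of the SETD1 complexes, chosen after its values were seen. WDR82 had a log2 fold change of -0.28, the lowest of the 12 partners of the KMT2 and SETD1 complexes, of which 8 were lower and 4 higher.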

How the data were processed

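RNA-seq of NB4 cells after 3 days with DMSO or 10 μM Tan I gave 3 libraries per group, grouped by the sample labels. Per the study's methods the authors aligned reads to GRCh38 with STAR, removed multiply mapping reads, counted with featureCounts and used DESeq2; versions, annotation and strand setting are not given in the sources used here. The deposited signal values are counts that the authors divided by 1 size factor per library, and 100% were whole multiples of 1 read (tolerance 0.001), so reads were recovered. Deposited columns of the authors' own comparison (a mean, log2 fold change, standard error, Wald statistic, p and adjusted p) were not used. The columns named con were taken as the DMSO libraries.

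The main test was limma 3.58.1 (R 4.3.3) on log2(normalized count + 1), with a mean-variance trend, for 16887 genes with a mean of at least 10. Fold changes on this scale understate those of low genes. Single genes also had an exact two-sided permutation test (smallest p 0.1). DESeq2 1.42.0 and edgeR 4.0.16 were run on the recovered reads; the scripts were tested on simulated data. Lengths and positions come from GENCODE release 44 (18550 of 18625 identifiers matched). On those annotations 46 members overlap a gene on the opposite strand and 30 a gene on the same strand. Genes named with all values were those called or not overlapping, the extremes of each class, a set chosen by role, and called partners. Members, classes and lists were chosen with earlier results of these data known.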

Additional observations from a re-analysis of the deposited data

How the results depend on the processing

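Of 19 alternatives 17 were planned; leaving out DMSO replicate 2 and Tan I replicate 3 together and the correction for length and GC content were chosen after seeing the data. Members called with adjustment numbered 0 throughout. Without adjustment 1 member was called in the main test, 2 after rescaling to the same total (SETD1B and HDAC11), 5 with the principal component covariate, 0 without DMSO replicate 2 and Tan I replicate 3 together, and 0 to 8 when 1 library was left out (0 without Tan I replicate 2, 8 without Tan I replicate 1). Of the partner genes 1 was called in the main test, 2 each with quantile normalization, rescaling and DESeq2, 5 with the covariate, 0 with the replicate block, 0 without DMSO replicate 2 and Tan I replicate 3 together, 0 after the length and GC correction, and 0 to 10 when 1 library was left out. The 5 are 5.49% of the partners and the 10, without Tan I replicate 1, are 11%, each against 8.86% of all genes tested. Methyl writers minus erasers ran from -0.07 to -0.05 and acetyl writers minus erasers from -0.26 to -0.02. When 1 library was left out, the medians ran from -0.26 to 0.01 for methyl writers, -0.17 to 0.10 for methyl erasers, -0.17 to 0.03 for acetyl writers and 0.0037 to 0.10 for acetyl erasers. The SD between replicates (0.23, 0.21, 0.46 and 0.099, in the same order) exceeds the medians of the main test in size. The shifts cannot be judged against it, since leaving out 1 of 3 libraries moves a group mean by less than that SD. Rescaling moved the median of all genes to -0.06. The cause was not tested.

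With each gene's group mean taken off, the deviations of same-numbered libraries correlated at 0.75, -0.09 and -0.45. The highest value, 0.76, was between DMSO replicate 2 and Tan I replicate 3, at the far end of the first principal component. The deviations within a group are not independent and mostly follow that component, so these values cannot show whether the numbers pair the samples. With a replicate block 1 member and 348 genes were called against 1 and 408 without it. With 3 libraries a group, the 95% interval lay inside a 1.5-fold change for 42 of 70 members.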
